A study of Mus musculus with 11 samples.

Results

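Carriers of amino acids and of the neurotransmitters related to them were followed across 3 regions of the mouse testis. The genes were taken by family, as every probe set whose only annotated symbol starts with Slc1a, Slc3a, Slc6a, Slc7a, Slc36a, Slc38a or Slc43a followed by a number. Of 45101 probe sets 121 met this rule, and of 18194 genes with a probe set of their own 60 did. They are 7 Slc1, 2 Slc3, 20 Slc6, 15 Slc7, 4 Slc36, 9 Slc38 and 3 Slc43 genes. Each gene is given by its probe set with the highest mean log2 signal. The rule used gene symbols and no measured difference, but the genes and lists were chosen with earlier results of these data known. No filter on low signal was applied, so all 60 entered each comparison. Of these, 34 had a mean above the median of all probe sets.

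The regions were the Sertoli valve (SV), the terminal segment of the seminiferous tubule next to the rete testis (4 arrays), the rete testis (RT), the channel network that collects tubule fluid (3 arrays), and the convoluted seminiferous tubule (ST) far from both (4 arrays). All 3 groups came from 7-week W/Wv mice, Kit mutants whose tubules are depleted of germ cells, and no wild-type array was analysed here. Each array was made from a pool of 20 testes, into which trypan blue had been injected through the efferent ducts before the regions were separated by hand. Per the study's methods, RT and SV form 1 continuous tube, and SV pieces very probably carried some cells from RT. In pieces of whole tissue, fewer cells of a type and less RNA per cell cannot be told apart.

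Amino acids cross membranes on families of carriers that differ in what couples them. The Slc1 and Slc6 proteins use the sodium gradient to concentrate acidic amino acids, neutral amino acids, GABA, taurine, creatine or monoamines in the cell. The Slc7 light chains mostly exchange one amino acid for another and reach the membrane only when bound to a heavy chain, Slc3a1 or Slc3a2, while the Slc7 cationic carriers work alone. Slc38 carriers take up glutamine and other small neutral amino acids, and some Slc36 carriers move them with protons, often out of lysosomes. Slc43 carriers work without coupling to an ion gradient. In the testis, Sertoli cells feed germ cells and the rete and excurrent ducts alter the fluid that leaves the tubules.

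The labelled regions were checked on lists of marker genes, also chosen with earlier results of these data known. Of 10 rete epithelium markers, 7 were higher in SV and 9 in RT than in ST, and their summed signal was 3740.4–7865.7 in SV, 19510.3–31242.8 in RT and 958.4–1330.3 in ST. Of 12 Sertoli cell markers, none was called in SV (4 were lower at an unadjusted p under 0.05) and 7 were lower in RT, with sums of 73252.1–99813.5 in SV, 48816.8–60923.0 in RT and 91209.5–115898.8 in ST. Of 6 germ cell markers, Gfra1 was higher in SV and RT and Ddx4, Dazl and Sall4 were lower in RT, and Dazl gave 1373–2659 in ST. Of 6 endothelial markers, 1 was higher in SV and 3 in RT (sums of 1343.5–2960.3 in SV, 4151.8–5024.9 in RT and 757.7–1183.1 in ST). Of 5 myoid markers 2 were lower in RT, of 5 macrophage markers 1 was higher there, and of 4 Leydig cell markers none was called (1 higher in SV at an unadjusted p under 0.05). Of 8 measured efferent duct and epididymis markers (summed 15848.0–29602.1 in SV, 23240.0–29512.2 in RT and 9687.6–14374.3 in ST, most of it from Lcn2, which was not called), Foxj1, Cftr and Aqp1 exceeded their ST level in SV as well as in RT, while Lcn5, Lcn8, Adam28 and Defb2, which mark the epididymis, averaged under 100 in every region. The part of these cells in the results that follow was not tested. The arrays also fell into 2 sets. Over brighter probe sets, deviations from the region mean were compared between arrays of different regions. They correlated at 0.168–0.477 within replicates 1 and 2 or within 3 and 4 (different numbers), and at -0.580 to -0.276 between those sets. Deviations cancel out within each region, so the negative values in part mirror the positive ones. Whether the sets were handled apart is not given in the sources used here.

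In RT, called genes on the higher side included the glutamate carriers Slc1a1 and Slc1a3, the cystine carriers Slc7a9 and Slc7a11 and the taurine carrier Slc6a6. Slc6a17, Slc38a1, Slc38a4 and Slc6a20a were among the others. The calls of Slc7a11 and Slc6a6 were lost with median centring. The lower side included the arginine carriers Slc7a1 and Slc7a6 and the serotonin carrier Slc6a4. A gene was called when limma, fitted to all 11 arrays, gave it a Benjamini-Hochberg adjusted p below 0.05 together with a change of more than 2-fold. By this measure 12 of the 60 genes (20.0%) were higher in RT than in ST, where 10.2% of all probe sets and 12.5% of all genes were. Lower in RT were 6 of the 60, where 5.48% of probe sets and 7.34% of genes were. SV differed from ST in 4 genes that were higher (6.67%, against 1.5% of probe sets and 2.39% of genes) and in 1 that was lower (1.67%, against 0.0665% and 0.0769%). Against RT, SV was higher in 6 (against 2.95% and 4.39%) and lower in 7 (11.7%, against 4.99% and 6.41%). Centring each array on its median signal lowered every RT against ST value by 0.42 on the log2 scale, and gave 9 higher and 8 lower there, and 8 higher and 6 lower in SV against RT. Within replicates 1 and 2 alone SV was higher than ST in 9 genes, and within replicates 3 and 4 alone, with 1 RT array, in 0. Shares over all genes were not taken with median centring or within single sets of replicates, so those counts have none beside them. The median log2 fold change of the 60 genes was 0.10 in SV and 0.11 in RT against ST, and -0.11 in SV against RT. It was 0.00, 0.13 and -0.11 over all probe sets, and 0.02, 0.08 and -0.04 over 1 probe set per gene. The arrays did not overlap for 10 genes in SV against ST (16.7%, and 10.8% of all genes), 26 in RT against ST (43.3%, and 43%) and 22 in SV against RT (36.7%, and 32.2%), so the shares for RT against ST were nearly the same. SV and RT were set against the same ST arrays, so these counts are not independent of each other.

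Altogether 20 genes were called in at least 1 comparison, and 40 in none. Of those 40, 21 averaged a signal under 100 in each region, among them the dopamine carrier gene Slc6a3, the glycine carrier gene Slc6a5 and the glutamate carrier genes Slc1a2 and Slc1a7. At these signals the arrays limit what can be seen, and no absence is read from them.

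**Figure D1:**
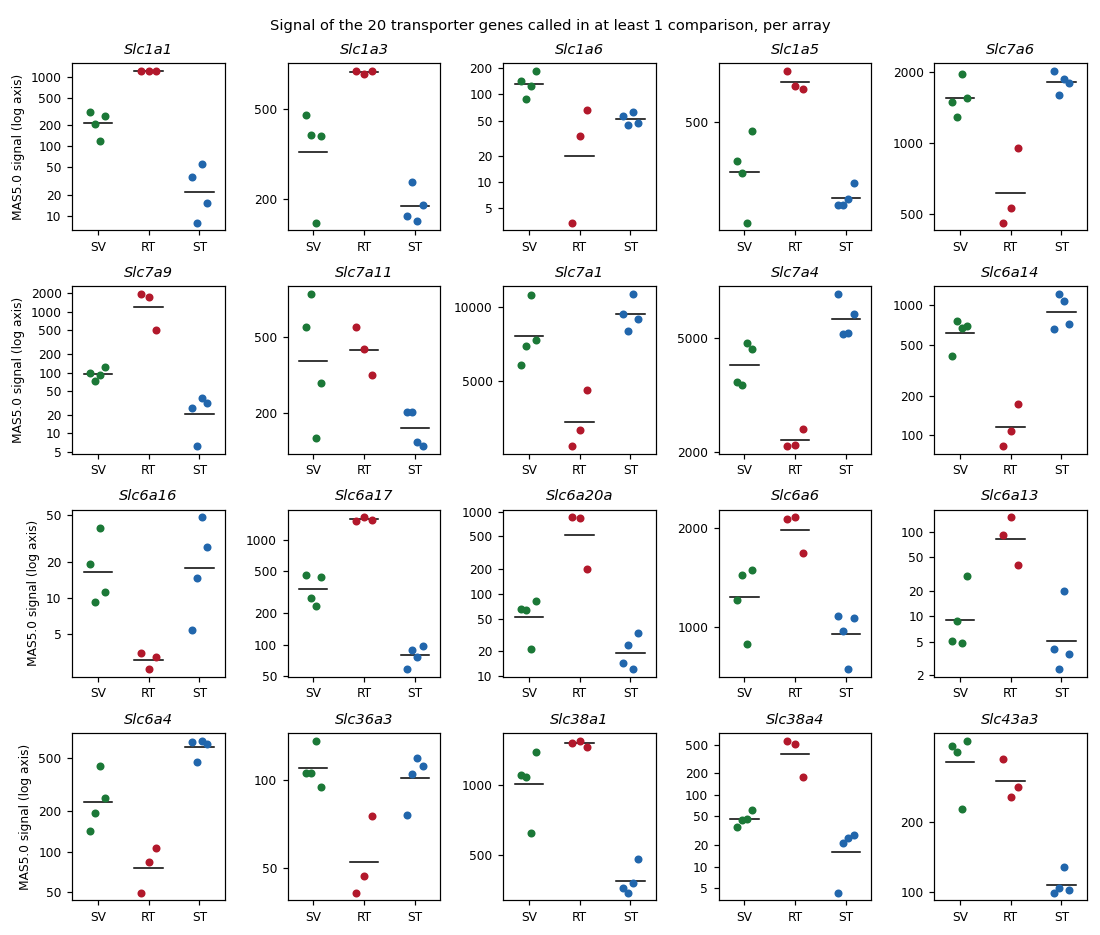
MAS5.0 signal (log axis, arbitrary units; each panel has its own range) of the 20 called genes, with 1 point per array for SV (4), RT (3) and ST (4) and a line at the geometric mean. Slc1a1, Slc6a17, Slc7a9, Slc6a20a and Slc38a4 have every RT array above all SV and ST arrays, whereas Slc6a14, Slc7a1, Slc7a4 and Slc7a6 have every RT array below them.

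Promoter sequence was available from RefSeq (GRCm38.p6) for 43 of the 60 genes, in 64 entries that each run from 250 bases before to 50 bases after a start site. Both strands were searched for TGATGNAA, the letters of the amino acid response motif read by ATF4 and CEBP proteins, and for TGACNNNGC, those of the antioxidant response motif read by NRF2. The amino acid response letters were found in 5 entries (7.81%) of Slc1a4, Slc6a21, Slc7a11 and Slc7a7, against 3.97% of 32851 entries over all genes. The antioxidant response letters were found in 11 entries (17.2%) of 9 genes, against 12.4% of all. Windows of 140 bases, from 120 before to 20 after the start site, are shown for Slc7a11 and Slc6a13, which were higher in RT than in ST, and for Slc7a1 and Slc7a6, which were lower. The Slc7a6 window is that of 1 of its 2 annotated start sites, both of which hold the match. Slc7a1 and Slc6a13 have further annotated start sites, and the entries of those hold neither motif. They are written 5′ to 3′ along the gene, with the matched letters in capitals.
Slc7a11, chr3:50443594-50443733, minus strand: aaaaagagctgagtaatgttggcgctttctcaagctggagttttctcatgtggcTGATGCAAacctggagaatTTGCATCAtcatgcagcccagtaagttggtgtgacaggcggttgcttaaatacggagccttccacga
Slc6a13, chr6:121300168-121300307, plus strand: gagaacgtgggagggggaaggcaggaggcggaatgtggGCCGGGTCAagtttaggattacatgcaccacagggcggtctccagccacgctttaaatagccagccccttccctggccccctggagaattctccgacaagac
Slc7a1, chr5:148399885-148400024, minus strand: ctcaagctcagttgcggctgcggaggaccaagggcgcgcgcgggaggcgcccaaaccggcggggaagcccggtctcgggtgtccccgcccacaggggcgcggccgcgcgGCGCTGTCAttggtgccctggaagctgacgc
Slc7a6, chr8:106168801-106168940, plus strand: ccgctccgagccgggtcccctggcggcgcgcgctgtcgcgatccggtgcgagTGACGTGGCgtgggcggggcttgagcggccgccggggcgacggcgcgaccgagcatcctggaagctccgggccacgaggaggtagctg
Slc7a11 holds the amino acid response letters once on each strand, and in Slc6a13 and Slc7a1 the antioxidant response letters lie on the strand opposite to the one shown. In these 4 windows no match of one motif overlapped a match of the other. A match describes the letters only, and genes holding the same letters lay on both sides of the comparison with ST.

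The genes are given below by role. These groups are too small for their counts to be read against the shares over all genes (12.5% higher and 7.34% lower in RT). Among the carriers of acidic amino acids, 2 of 5 were higher in RT than in ST. Slc1a1, which takes up glutamate and cysteine at the surface of epithelia and neurons, had signals of 307, 213, 118 and 269.6 in SV, 1223, 1220.3 and 1219.9 in RT, and 36.5, 8.02, 56.7 and 15.3 in ST. No array of one region overlapped another region, and the RT arrays lay close together. Against ST, the log2 fold change ± standard error was 3.25 ± 0.50 for SV (limma adjusted p = 0.00343) and 5.77 ± 0.54 in RT (adjusted p = 7.94e-06), and SV was below RT by -2.51 ± 0.54 (adjusted p = 0.00772). With signals under 32 set to 32, these became 2.49 for SV and 5.0008 for RT. The other 2 probe sets of Slc1a1 were also higher in RT (6.63 and 4.92), and 1 of them was higher in SV. Neither was called in SV against RT (-2.58, adjusted p = 0.0923, and -2.89, adjusted p = 0.0774).

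Slc1a3, the glutamate carrier known best from glia, had signals of 469, 383, 158 and 383 in SV, 739.8, 713 and 735 in RT, and 169, 239.8, 160.0 and 189 in ST. RT lay above all other arrays, while SV spread over a wide range and SV replicate 3 was below every ST array. RT was higher than ST (1.96 ± 0.30, adjusted p = 3.33e-04) and SV was lower than RT (-1.18 ± 0.30, adjusted p = 0.0201). SV against ST had 0.79 ± 0.28 (adjusted p = 0.209). The call of SV against RT was lost without SV replicate 3 (-0.83, adjusted p = 0.0105), RT replicate 1 (adjusted p = 0.0784) or RT replicate 2 (adjusted p = 0.0685), and with median centring (-0.86, adjusted p = 0.0642). Other probe sets of Slc1a3 differed in their calls. RT was called higher than ST at 1.82 (adjusted p = 0.00323) and 2.0065 (adjusted p = 0.00216). The rest also had RT above ST but were not called (adjusted p = 0.0689–0.186). Among all these other probe sets, SV against RT was called only at -1.28 (adjusted p = 0.0495). Elsewhere it was -1.67 to -1.10 (adjusted p = 0.0781–0.3).

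Slc1a6, the glutamate carrier of cerebellar Purkinje cells, had 142, 88.5, 125 and 187 in SV, 3.42, 33.8 and 65.5 in RT, and 56.0, 45.1, 62.5 and 47.6 in ST. SV was above both other regions in every array, and RT overlapped ST. Only SV against RT was called, at 2.73 ± 0.75 (adjusted p = 0.0274), and it was 1.66 with signals under 32 set to 32. Without SV replicates 1, 3 or 4 or RT replicate 1 that call was lost (adjusted p = 0.0514–0.0661), with 1.48 when the dim RT replicate 1 was left out.

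Of the small neutral exchangers, Slc1a5, which swaps glutamine for serine and other neutral amino acids, was higher in RT, and Slc1a4 was not called. Slc1a5 gave 381, 349, 247 and 469.9 in SV, 717, 642 and 631 in RT, and 279.9, 279.9, 293 and 327 in ST. RT lay above both, and SV overlapped ST. RT exceeded ST by 1.17 ± 0.19 (adjusted p = 5.68e-04), and SV was below RT by -0.91 ± 0.19 (adjusted p = 0.00727), short of 2-fold. The second, dim probe set of Slc1a5 was not called in RT (0.68, adjusted p = 0.522), and the first fell short of 2-fold there with median centring (0.75) and quantile normalization (0.99).

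Of 10 light chain genes, 2 were higher and 1 was lower in RT, and neither of the 2 heavy chain genes was called. Slc7a9, the light chain that reabsorbs cystine and basic amino acids in the kidney, was among the higher ones. Slc7a9 signals were 96.9, 72.7, 89.7 and 125 in SV, 1959.8, 1751 and 494 in RT, and 26.2, 6.24, 38.1 and 31.5 in ST. No region overlapped another, and RT replicate 3 was far below the other 2 RT arrays. The log2 fold change against ST was 2.16 ± 0.55 for SV (adjusted p = 0.0643) and 5.82 ± 0.60 for RT (adjusted p = 1.42e-05), and SV was below RT by -3.66 ± 0.60 (adjusted p = 0.0014). With a floor of 32, RT against ST was 5.16 for Slc7a9.

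Slc3a1 gave 31.3, 39.0, 27.6 and 26.3 in SV, 41.1, 26.6 and 42.1 in RT, and 1.55, 4.41, 41.6 and 33.7 in ST. These are dim values that overlapped in all 3 regions, with RT against ST at 1.86 ± 0.96 (adjusted p = 0.192) and at 0.14 with a floor of 32. Slc3a2, the heavy chain of most other light chains, had 11743, 9598, 10060.1 and 11335 in SV, 7288, 6450.3 and 9577 in RT, and 11883, 10757, 9834 and 11009 in ST. RT lay below both SV and ST in every array, by -0.50 ± 0.15 against ST (adjusted p = 0.0242), which is less than 2-fold.

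Among the light chains of Slc3a2, Slc7a6, which exchanges arginine for neutral amino acids, was lower in RT. It had 1487, 1287, 1964 and 1556 in SV, 459.7, 532 and 951 in RT, and 2022, 1597, 1863 and 1801 in ST. RT was below both other regions without overlap, and SV overlapped ST. The change was -1.56 ± 0.22 in RT against ST (adjusted p = 1.64e-04) and 1.34 ± 0.22 in SV against RT (adjusted p = 0.00147), and the second probe set of Slc7a6 was called the same way (-2.07 and 1.84).

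Slc7a11, which brings in cystine in exchange for glutamate, was higher in RT. Its signals were 559.7, 835, 149 and 288 in SV, 559.7, 433 and 318 in RT, and 203, 203, 141 and 136 in ST. SV ranged from within ST to above RT, with SV replicate 3 the lowest, and RT did not overlap ST. RT exceeded ST by 1.34 ± 0.46 (adjusted p = 0.0458), while SV against ST was 1.16 ± 0.42 (adjusted p = 0.217). The RT call was lost without SV replicate 4, RT replicates 1 or 2, or any ST array (adjusted p = 0.0535–0.168), with median centring (0.92, adjusted p = 0.18) and in the second probe set (0.47, adjusted p = 0.192).

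The other 7 light chain genes were not called. Slc7a5, the uptake route for leucine and other large neutral amino acids, averaged 9908 ± 1601 in SV, 7076 ± 1618 in RT and 10793 ± 436 in ST (SD, n = 4, 3 and 4), with -0.63 ± 0.16 in RT against ST (adjusted p = 0.011). That difference passed the adjusted p but not the fold. Slc7a7 and Slc7a8, light chains of kidney and gut epithelium, had 0.48 ± 0.22 and -0.03 ± 0.19 in RT against ST (adjusted p = 0.134 and 0.946).

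Cationic amino acid carriers were lower in RT in 2 of 5 cases. Slc7a1, the main uptake route for arginine and lysine in many cells, had 5832, 6937, 11172 and 7341 in SV, 2754, 3187 and 4636 in RT, and 9336, 8012, 11242 and 8898 in ST. RT was below both others without overlap, and SV overlapped ST. RT fell by 1.44 ± 0.22 on the log2 scale against ST (adjusted p = 3.46e-04), and SV was higher than RT by 1.14 ± 0.22 (adjusted p = 0.00419), a call lost without SV replicate 3 (0.96) or RT replicate 1 (0.98), which brought it under 2-fold. A second probe set of Slc7a1 was also lower in RT (-1.27), and gave 0.996 in SV against RT, under 2-fold.

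Slc7a4, a relative of the cationic carriers for which no transport has been established, had 3495, 3419, 4794 and 4563 in SV, 2092, 2107 and 2398 in RT, and 7134, 5163, 5201 and 6086 in ST. The 3 regions did not overlap, with SV between the other 2. The differences were -0.54 ± 0.15 for SV (adjusted p = 0.0857) and -1.41 ± 0.16 for RT (adjusted p = 2.88e-05) against ST, and all 3 probe sets of Slc7a4 were called lower in RT. Slc7a2, another arginine carrier, had 2170 ± 296 in SV, 1969 ± 105 in RT and 2034 ± 65.1 in ST (SD, n = 4, 3 and 4) and was not called.

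The Slc6 carriers of amino acids went both ways in RT, with 2 of 9 higher and 2 lower. Slc6a17, which loads neutral amino acids into synaptic vesicles of neurons, had 466, 278, 234 and 441 in SV, 1526, 1643 and 1545 in RT, and 58.4, 90.0, 75.6 and 97.7 in ST. No region overlapped another. Against ST, the change was 2.11 ± 0.24 for SV (adjusted p = 3.26e-04) and 4.31 ± 0.26 for RT (adjusted p = 3.6e-07), and SV was lower than RT (-2.21 ± 0.26, adjusted p = 2.47e-04). Its 2 other probe sets were higher in RT (2.40 and 4.66). They were not called in SV against ST (1.05, adjusted p = 0.358, and 2.51, adjusted p = 0.0576). Nor were they called in SV against RT (-1.35, adjusted p = 0.101, and -2.15, adjusted p = 0.0508). Of 5 neuron and glia markers, summed at 2091.1–2931.9 in SV, 683.8–1116.1 in RT and 2369.5–3306.0 in ST, Tubb3 and Snap25 were lower in RT, Snap25 at signals under 32. At an unadjusted p under 0.05, 1 marker was higher there, and their part in these values was not tested.

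Slc6a20a, which takes up proline and other imino acids in kidney and gut, had 65.2, 63.2, 21.5 and 81.6 in SV, 857, 849.7 and 199 in RT, and 14.4, 23.7, 12.2 and 34.0 in ST. RT was above all other arrays, again with RT replicate 3 the lowest, and SV replicate 3 lay within ST. RT exceeded ST by 4.76 ± 0.60 (adjusted p = 6.97e-05), and SV was below RT by -3.34 ± 0.60 (adjusted p = 0.00257). SV against ST was 1.42 ± 0.56 (adjusted p = 0.269), and RT against ST was 4.02 with a floor of 32. Its neighbour Slc6a20b, a mouse duplicate with which signal may be shared, had 0.98 ± 0.69 in RT (adjusted p = 0.359), while its second, dim probe set was higher in RT than in ST (2.70, adjusted p = 0.0205) and lower in SV than in RT (-2.73, adjusted p = 0.0326).

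Slc6a14, an epithelial carrier that concentrates neutral and basic amino acids, stood on the other side. It gave 408, 761, 675 and 689 in SV, 82.7, 109 and 173 in RT, and 661, 1226, 1085 and 723 in ST. RT was below both regions without overlap, and SV overlapped ST. RT fell by 2.95 ± 0.30 on the log2 scale against ST (adjusted p = 1.22e-05), SV exceeded RT by 2.41 ± 0.30 (adjusted p = 3.06e-04), and the second probe set of Slc6a14 was called in the same 2 comparisons.

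Slc6a16, an orphan member of the family, was dim throughout, with 19.3, 9.26, 38.8 and 11.2 in SV, 3.46, 2.51 and 3.19 in RT, and 5.34, 14.7, 47.8 and 27.0 in ST. RT was the lowest in every array and the other regions overlapped. The call in RT against ST (-2.56 ± 0.80, adjusted p = 0.0306) rested on signals below 32, since it was -0.14 with that floor (adjusted p = 0.567). It was also lost without any 1 of the RT arrays or without ST replicates 3 or 4 (adjusted p = 0.0643–0.0941).

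Carriers of GABA, taurine and creatine included 2 of 5 that were higher in RT. Slc6a13, which takes up GABA and taurine in liver and kidney, had 5.05, 8.91, 4.80 and 29.6 in SV, 91.1, 149 and 41.1 in RT, and 4.07, 2.36, 19.9 and 3.54 in ST. RT was above all other arrays, and SV overlapped ST at very low signal. The log2 fold change in RT was 4.01 ± 0.88 (adjusted p = 0.00394) and 1.36 with a floor of 32 (adjusted p = 0.018). SV was below RT by -3.20 ± 0.88 (adjusted p = 0.0268), a call lost without SV replicates 1, 2 or 3 or RT replicates 1 or 2 (adjusted p = 0.0541–0.132).

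Slc6a6, the taurine carrier, had 1207, 1439.6, 892 and 1499 in SV, 2142, 2162 and 1685 in RT, and 1079.5, 977, 745 and 1065 in ST. RT lay above both regions in every array, and SV overlapped ST. RT exceeded ST by 1.05 ± 0.19 (adjusted p = 0.00117), just over 2-fold, and fell short of it without RT replicate 1 (0.997), RT replicate 2 (0.99) or ST replicate 3 (0.93), and with median centring (0.63). The creatine carrier gene Slc6a8 averaged 1372 ± 384 in SV, 1249.9 ± 291 in RT and 1338 ± 246 in ST (SD, n = 4, 3 and 4), and the dim GABA and betaine carrier genes Slc6a11 and Slc6a12 were not called.

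None of the 3 glycine and proline carriers was called, and at an unadjusted p under 0.05 only Slc6a9 differed. Slc6a9, the glycine carrier, averaged 422 ± 48.3 in SV, 719.8 ± 108 in RT and 407 ± 45.7 in ST (SD, n = 4, 3 and 4). RT stood above SV and ST in every array, and its 0.82 ± 0.16 against ST passed the adjusted p (0.00188) but not the fold.

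Of the 3 monoamine carriers, Slc6a4, which takes up serotonin, was below its ST level in SV as in RT. It had 144, 194, 433 and 252 in SV, 49.98, 84.5 and 106 in RT, and 657, 466, 669 and 627 in ST. The regions did not overlap, and SV lay between RT and ST. Against ST the change was -1.35 ± 0.32 for SV (adjusted p = 0.0446) and -2.97 ± 0.34 for RT (adjusted p = 3.56e-05), and SV exceeded RT by 1.62 ± 0.34 (adjusted p = 0.00699). The SV call was lost without SV replicates 1, 2 or 4, any 1 of the ST arrays or RT replicate 2 (-1.47 to -1.12, adjusted p = 0.0667–0.148), and with a floor of 32 (adjusted p = 0.12). The noradrenaline and dopamine carrier genes Slc6a2 and Slc6a3 averaged under 100 in each region, and a second probe set of Slc6a2, dimmer still, was lower in RT than in ST (-3.56, adjusted p = 0.0246).

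None of the 4 Slc36 carriers was called against ST, and 1 was called in SV against RT. Slc36a3, a testis-expressed member, had 106, 106, 137 and 94.8 in SV, 41.1, 46.9 and 75.2 in RT, and 75.7, 105, 119 and 112 in ST. RT was below both regions without overlap, although RT replicate 3 and ST replicate 1 nearly touched. RT against ST was -0.95 ± 0.30 (adjusted p = 0.0358), just under 2-fold. SV exceeded RT by 1.06 ± 0.30 (adjusted p = 0.0332), and that call was lost without SV replicates 1, 2 or 3 or RT replicates 1 or 2 (adjusted p = 0.0551–0.15), and on log2(signal + 32) (0.74). Slc36a4, a carrier of proline and tryptophan, had 0.83 ± 0.14 in RT against ST (adjusted p = 4.89e-04), under 2-fold.

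Among the 9 Slc38 carriers, 2 were higher in RT and 1 of these in SV as well. Slc38a1, a concentrative glutamine carrier, had 1104, 1084, 618 and 1379 in SV, 1509, 1550.0 and 1461 in RT, and 362, 345, 379.9 and 479 in ST. The regions did not overlap. It was higher than ST by 1.37 ± 0.21 in SV (adjusted p = 0.00279) and by 1.96 ± 0.22 in RT (adjusted p = 3.11e-05). The second probe set of Slc38a1 was called in RT (1.23) but not in SV (0.66, adjusted p = 0.329).

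Slc38a4, which moves neutral and basic amino acids in liver and placenta, had 35.3, 44.0, 45.6 and 62.2 in SV, 571, 508 and 177 in RT, and 4.34, 21.2, 24.9 and 27.5 in ST. RT was far above both regions, and RT replicate 3 was again the lowest of the 3. RT exceeded ST by 4.55 ± 0.63 (adjusted p = 1.33e-04), and SV was below RT by -3.02 ± 0.63 (adjusted p = 0.00594). SV against ST, at 1.53 ± 0.58 without overlap, was not called (adjusted p = 0.245). With a floor of 32, RT against ST was 3.54 and SV against ST 0.52. Slc38a2, the carrier that cells induce when amino acids run short, lies between these 2 genes on chromosome 15 and averaged 6288 ± 407 in SV, 4591 ± 699 in RT and 6110 ± 349 in ST (SD, n = 4, 3 and 4). Its -0.42 ± 0.13 in RT passed the adjusted p (0.0242) but not the fold.

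In the Slc43 family, Slc43a3, a carrier of purine bases, had 427, 402, 228 and 452 in SV, 376, 258 and 285 in RT, and 99.6, 104, 128 and 102 in ST. Both SV and RT were above ST without overlap and overlapped each other. The log2 fold change was 1.76 ± 0.23 for SV (adjusted p = 0.00105) and 1.49 ± 0.25 for RT (adjusted p = 6.03e-04), and SV against RT was 0.27 ± 0.25 (adjusted p = 0.554). Slc43a1, a carrier of large neutral amino acids, had 0.93 ± 0.27 in RT (adjusted p = 0.0197), under 2-fold, and Slc43a2 had -0.15 ± 0.25. A second probe set of Slc43a2 differed from the first, being lower in RT than in ST (-1.61, adjusted p = 8.94e-05) and SV exceeding RT (1.15, adjusted p = 0.00269).

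**Figure D2:**
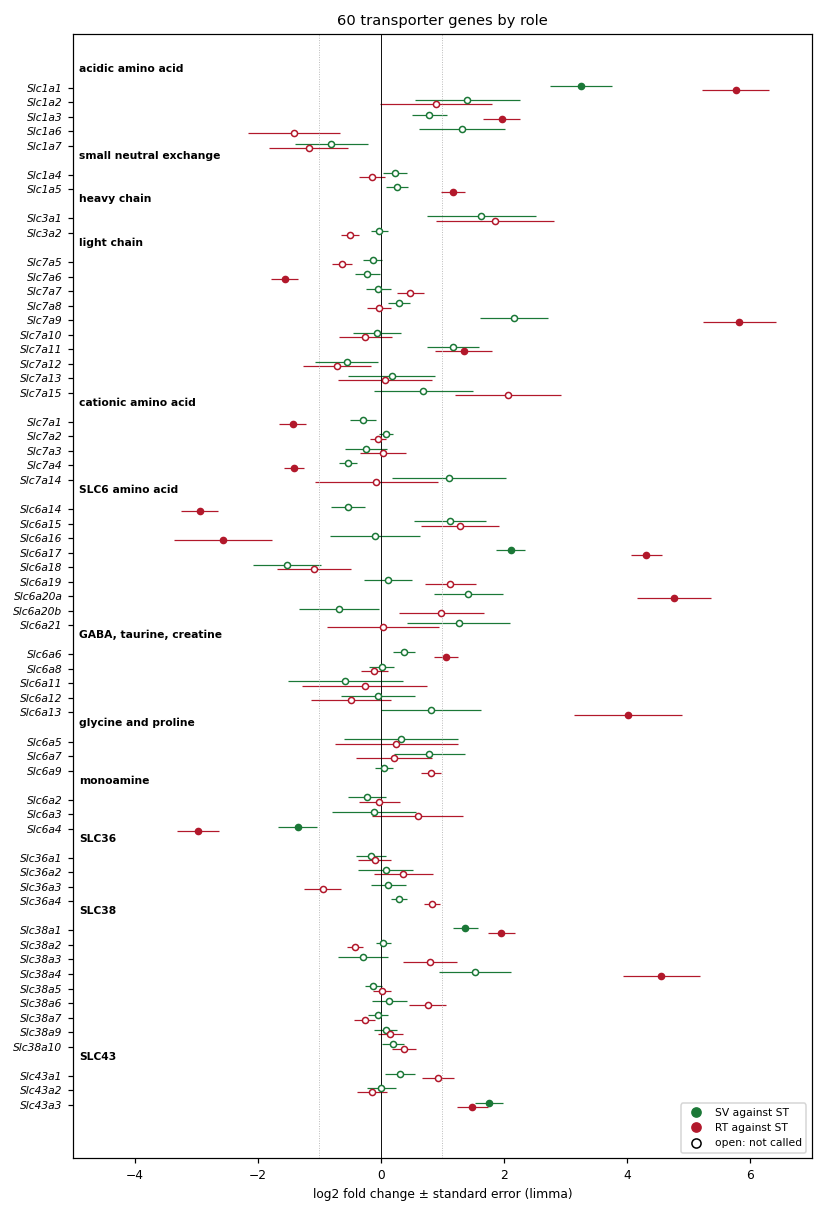
Log2 fold change ± standard error (limma) of all 60 genes, grouped by role, in SV against ST (green) and RT against ST (red). Filled points passed an adjusted p of 0.05 and 2-fold, the dotted lines mark 2-fold, and most genes lie between them in both comparisons.

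The change in SV set beside that in RT differed from gene to gene. For the 12 genes higher in RT, the excess of the mean SV signal over ST was expressed as a percentage of the RT excess. It was 136% for Slc43a3, 108% for Slc7a11 and 58.7% for Slc38a1. It was 29.4% for Slc1a3, 28.4% for Slc6a6, 18.4% for Slc6a17, 18.2% for Slc1a5 and 16.6% for Slc1a1. For Slc38a4, Slc6a20a, Slc6a13 and Slc7a9 it was 6.82%, 5.995%, 5.36% and 5.13%. The single SV arrays spread widely in some of these, from -8.42% to 249.7% for Slc7a11, from -12.9% to 47.6% for Slc1a5 and from -3.09% to 25.7% for Slc6a13, whose mean rested on SV replicate 4. SV replicate 3 was the lowest SV array in 10 of these 12 genes. Among the SV arrays it also had the lowest summed signal of the rete (3740.4), efferent duct (15848.0), Leydig cell (26720.9), macrophage (12043.1) and endothelial markers (1343.5). Its Sertoli cell marker sum was the highest (99813.5). By the median over the efferent duct markers, whose sum came mostly from Lcn2, SV replicate 3 was instead the highest SV array (0.967 above ST on the log2 scale). The germ cell and myoid sums were lowest in SV replicate 1 (3480.4 and 9064.8), and the neuron and glia sum in SV replicate 4 (2091.1). The part of these cells in the ratios was not tested. Since the ratios share the RT and ST arrays, no test was made between them.

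**Figure D3:**
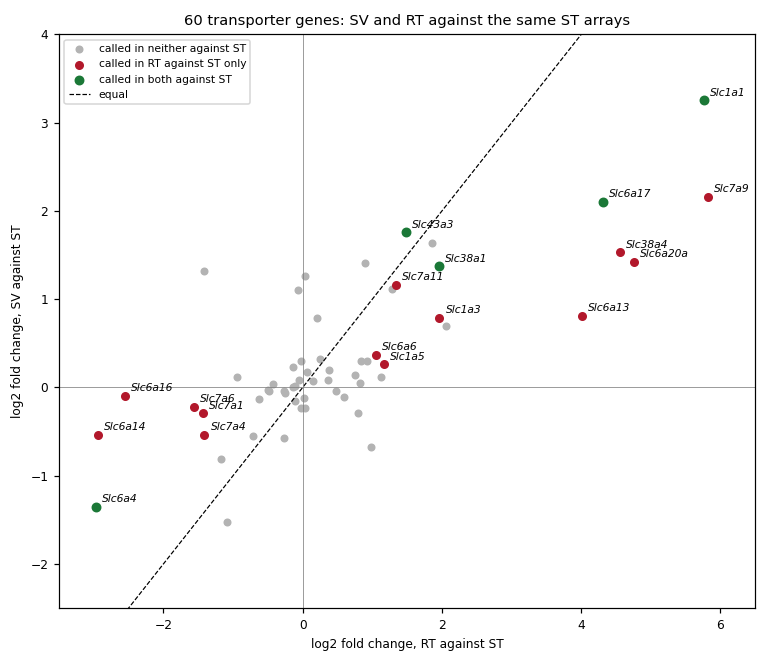
Log2 fold change in SV against ST (vertical axis) and in RT against ST (horizontal axis) for the 60 genes, each 1 point; both axes use the same 4 ST arrays. Slc43a3 lies above the dashed line of equal change, at 1.76 and 1.49, while Slc7a9 (2.16 and 5.82), Slc6a20a (1.42 and 4.76) and Slc38a4 (1.53 and 4.55) lie far below it.

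The 3 RT arrays were not alike for all of these genes. In RT replicate 3, Slc6a20a, Slc7a9, Slc38a4 and Slc6a13 were lower than the mean of the other 2 RT arrays by 4.28, 3.76, 3.05 and 2.93 times, while for the other 8 genes higher in RT that ratio was 0.988–1.56. The scaffold gene Pdzk1 gave 763, 639 and 61.3 in RT replicates 1 to 3, the water channel gene Aqp1 4144, 3109 and 878, and the ciliary factor gene Foxj1 2264, 2399 and 732. The chloride channel gene Cftr gave 1441, 1255 and 1432. The summed rete markers were also lowest in RT replicate 3 (19510.3, against 31242.8 and 27847.1), with the keratin gene Krt19 at 904, 908 and 229.6, the claudin gene Cldn7 at 1402, 1237 and 359.6 and the adherens junction gene Cdh1 at 7062, 5595 and 5359.8. Without RT replicate 3, all 4 genes stayed called, with 5.46 for Slc6a20a, 6.46 for Slc7a9, 5.09 for Slc38a4 and 4.52 for Slc6a13. With replicates 3 and 4 alone, 1 RT array is left and assumed to vary like the other groups. RT over ST then stood at a log2 fold change of 3.83 for Slc7a9, 5.37 for Slc1a1 and 4.17 for Slc6a17, and 0.92–3.29 for the other 9. Why RT replicate 3 differs was not tested.

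**Figure D4:**
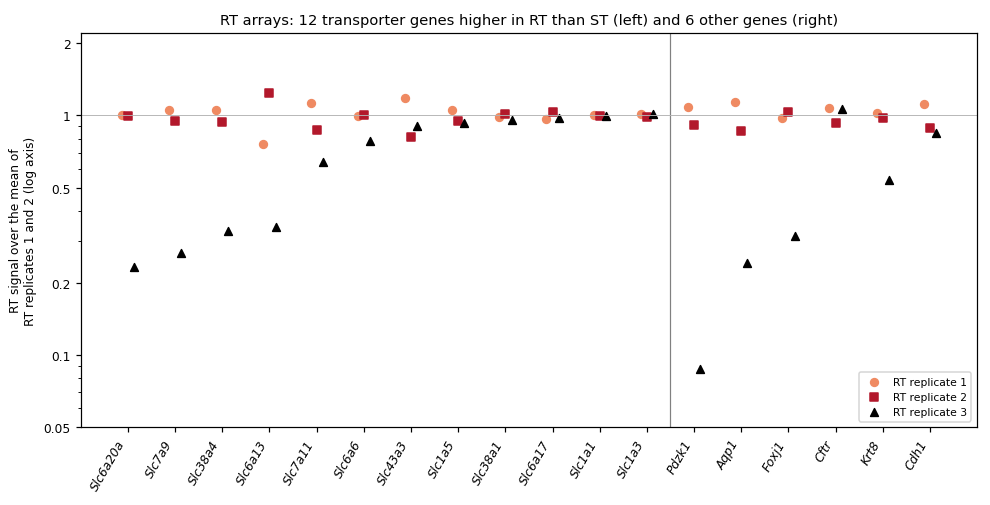
Signal of each RT array divided by the mean of RT replicates 1 and 2 (log axis), for the 12 transporter genes higher in RT than in ST (left of the line) and 6 other genes (right). RT replicate 3 (triangles) lies well below 1 for Slc6a20a, Slc7a9, Slc38a4 and Slc6a13, as for Pdzk1, Aqp1 and Foxj1, and near 1 for Slc1a1, Slc1a3, Slc6a17 and Cftr.

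Other genes of amino acid handling were taken from lists chosen with earlier results of these data known. Over all genes, 12.5% were higher and 7.34% lower in RT than in ST, and 2.39% higher in SV. Of 20 peptide, vesicular and mitochondrial carriers, 4 were higher and 1 was lower in RT than in ST, and 1 was higher in SV. Slc15a2, a proton-coupled peptide carrier, was called in both, with 526–1453 in SV, 4201–5870.0 in RT and 134–162 in ST (for SV 2.53, adjusted p = 1.03e-04; for RT 5.10, adjusted p = 1.75e-07). Also higher in RT were the aromatic amino acid carrier gene Slc16a10 (1.23) and the mitochondrial carrier genes Slc25a12 (1.19) and Slc25a15 (1.38), while the mitochondrial glutamate carrier gene Slc25a18 was lower (-1.55). Of 7 measured partner and trafficking proteins, 4 were higher in RT, namely Pdzk1 (5.76), Cd44 (3.85), Slc9a3r1 (2.08) and Nedd4l (1.15), and the syntaxin gene Stx1a was lower (-2.21). With a floor of 32, Pdzk1 was 3.28 in RT. Cd44 was also higher in SV (1.64, adjusted p = 0.00309).

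Genes that make or use amino acids went both ways in RT, with 5 of 24 higher and 4 lower, and 1 was higher in SV. Bcat1, the cytosolic enzyme that transaminates branched-chain amino acids, had 1476, 519, 286 and 1197 in SV, 4532, 4071 and 4079 in RT, and 6.47, 20.4, 28.3 and 37.4 in ST. The regions did not overlap, and the log2 fold change, which with a floor of 32 was 4.43 for SV and 6.99 for RT, was 5.21 for SV (adjusted p = 1.78e-04) and 7.77 for RT (adjusted p = 1.62e-06). Its mitochondrial counterpart Bcat2 was lower in RT (-1.23). Arg2 (4.63), Prodh (2.12), Gldc (2.11) and Got2 (1.86) were higher in RT, and the asparagine and serine synthesis genes Asns (-2.10), Phgdh (-1.35) and the folate enzyme gene Shmt1 (-1.13) were lower. With a floor of 32, Arg2 was 3.55 and Gldc 1.1014 in RT.

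Of 18 measured genes of GABA, taurine, creatine and monoamine metabolism, 6 were higher and 3 were lower in RT, and SV had no call, while 3 stood above ST and 4 below it at an unadjusted p under 0.05. Csad, which makes the taurine precursor hypotaurine, was higher (1.69, adjusted p = 2.36e-05). Cdo1, the step before it, was lower (-1.06, adjusted p = 0.0187, and 0.0544 with a floor of 32). Its signals were 1717, 1893 and 763.5 in RT replicates 1 to 3 and 2566–3110 in ST, so RT replicate 3 was far below the other RT arrays. The creatine synthesis genes Gatm (-1.97, adjusted p = 2.11e-05) and Gamt (-1.95, adjusted p = 1.29e-06) were lower and the creatine kinase gene Ckb was higher (1.64, adjusted p = 0.00126). Maob (1.23) and Maoa (1.15), which break down serotonin and other monoamines, were higher as well.

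Receptor genes for glutamate, GABA and glycine were higher in RT in 6 of 32 cases and lower in 1. The glycine receptor gene Glrb had 110.3, 32.2, 60.5 and 98.4 in SV, 308, 206 and 231 in RT, and 4.91, 1.63, 0.894 and 5.52 in ST. No region overlapped another, and Glrb was called in SV (4.76, adjusted p = 0.00113), and the RT value was 6.61 (adjusted p = 1.46e-05). All ST signals of Glrb were under 32, and with that floor the SV call was lost (1.08, adjusted p = 0.218) and RT was 2.94 (adjusted p = 6.69e-04). Gria1 (4.73), Gabra3 (3.33), Gabrb1 (2.25), Gria3 (1.83) and Grm4 (1.40) were higher in RT, and Grin2c was lower (-2.95). With a floor of 32, Gria1 was 2.43, Gabra3 1.41 and Gabrb1 1.05 in RT.

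In the list of amino acid shortage and sensing, 3 of 22 genes were higher and 2 lower in RT, and 2 were higher in SV. The RT counts are near the shares over all genes (12.5% and 7.34%). The stress response factor gene Cebpb exceeded ST by 1.18 in SV (adjusted p = 0.00234) and by 1.72 in RT (adjusted p = 2.13e-05). The lipoprotein receptor gene Vldlr exceeded ST by 2.41 in SV (adjusted p = 7.12e-05) and by 3.62 in RT (adjusted p = 6.57e-07). Castor2 was higher in RT (1.78) and its relative, the arginine sensor gene Castor1, was lower (-1.25), as was the leucine sensor gene Sesn2 (-2.12). Of 5 osmotic response genes, Sgk1 was higher (1.26) and Hspa4l lower (-1.71) in RT, and neither was called in SV. Across the 7 lists, SV gave 6 genes higher and none lower than ST (24 and 13 at an unadjusted p under 0.05, and 1 lower by the methods' t-test). RT gave 29 higher and 13 lower than ST, or 18 and 18 with median centring. SV against RT gave 8 higher and 16 lower, or 18 and 10 with median centring. Over all genes 2.39% were higher and 0.0769% lower in SV than in ST. In RT against ST these shares were 12.5% and 7.34%, and in SV against RT 4.39% and 6.41%. No such shares were taken with median centring or the methods' t-test, so those counts have none beside them.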

How the data were processed

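RNA from pooled SV, RT and ST pieces was amplified and hybridised to Affymetrix Mouse Genome 430 2.0 arrays. The deposited values are signal intensities that the authors computed with MAS 5.0, 1 per probe set and array; the mean after trimming 2% from each end was 500.0 on each array, and the scaling target is not given in the sources used here. Median signals were 79.0–96.5 in SV, 99.6–110.4 in RT and 65.8–85.1 in ST, and the number of arrays limits the precision. The labels call the 4 SV, 3 RT and 4 ST arrays biological replicates, and p-values measure the spread between these pools.

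Intensities were taken to log2 without further scaling and fitted for all 45101 probe sets and 11 arrays with limma 3.58.1 (R 4.3.3; lmFit and eBayes with an intensity trend), and p-values were adjusted by Benjamini and Hochberg's method over the whole table. A call needed an adjusted p below 0.05 and a change above 2-fold. Of the probe sets 34958 had 1 symbol, 932 several and 9211 none; the last 2 kinds were not used by name. Other steps used Python 3.11.15 with numpy 2.4.6, pandas 2.3.3 and matplotlib 3.10.9. The fit was tested on simulated data. Signals are not compared between genes, since probe sets differ in brightness.

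The genes and lists were chosen with earlier results of these data known. Values of every array are given for genes called in at least 1 comparison and for both heavy chain genes, and all others by count, range or regional mean. The replicate numbers did not enter the fit, and a fit with them as a block was an alternative. Alternatives covered the test, the arrays in the fit, the scaling, the treatment of low signal, the replicate block, the probe set and leaving out each array. The methods' t-test was run here on log2 signals. Its fold came from means of log2 signal, whereas the study took the ratio of signal values.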

Additional observations from a re-analysis of the deposited data

Results flagged for a closer look

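Single arrays stood apart in 2 of the 44 groups of 4 arrays examined, where chance would set apart about 1 in 20. Slc38a4 had a signal of 4.341 in ST replicate 1, with 21.2–27.5 in the other 3 ST arrays. On the log2 scale the gap to the nearest array was 0.858 of the whole range, above the limit of 0.829 for 4 arrays. Slc43a3 had a signal of 228.1 in SV replicate 3, with 402–452 in the other 3 SV arrays, a gap of 0.829 of the log2 range.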

How the results depend on the processing

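Over 36 called gene results and their alternatives, 833 values kept direction and call, 117 kept direction only and 0 turned. Part of this was fixed in advance. The methods' t-test (here on log2 signals), only the 2 regions compared and no intensity trend use the log2 fold changes of the main fit. So do no fold threshold, no dim probe sets and 1 probe set per gene. The same holds for leaving out an array of the region not compared. It also holds for either block of replicates in SV against ST, where both regions have the same replicate numbers. These could not turn a direction, and no fold threshold could not end a call. Without any 1 array 27 of the 36 kept their call. Of the transporter genes, 4 were higher in SV than in ST; the methods' t-test gave 7, the same test after Benjamini-Hochberg adjustment 0, the replicate block 7, replicates 1 and 2 alone 9, replicates 3 and 4 alone 0, and second probe sets 2. For the 1 lower in SV, the t-test gave 2, and the count was 0 after its adjustment, with only the 2 regions compared, a floor of 32, no intensity trend, and replicates 3 and 4 alone. In RT against ST, replicates 3 and 4 alone, with 1 RT array, gave 3 higher (of 12) and 3 lower (of 6), and no fold threshold gave 10 lower. In SV against RT, with 6 higher and 7 lower, the adjusted t-test gave 1 and 4, leaving out dim probe sets 4 lower, no fold threshold 11 lower, and replicates 3 and 4 alone 0 and 0. Leaving out 1 array gave 4–6 higher and 0–1 lower in SV against ST (0 without SV replicates 1, 2 or 4, RT replicate 2 or any 1 of the ST arrays), 10–14 and 5–7 in RT against ST, and 3–7 and 5–8 in SV against RT (3 without SV replicate 3 or RT replicate 1).

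Of the other amino acid genes, 6 were higher in SV than in ST (1 with the adjusted t-test, 0 in replicates 3 and 4 alone). None was lower, but 1 was under the t-test, only the 2 regions, no dim probe sets, the replicate block, replicates 1 and 2 against 3 and 4 as a block, 1 probe set per gene and no fold threshold, and 2 in replicates 1 and 2 alone. In RT, 29 were higher (18 with median centring, 10 in replicates 3 and 4 alone). SV against RT gave 8 higher (adjusted t-test 5, median centring 18, no fold threshold 18) and 16 lower (adjusted t-test 4, median centring 10), with 0 and 0 in replicates 3 and 4 alone. Leaving out 1 array gave 6–7 higher and 0–1 lower in SV against ST (1 without SV replicate 3 or RT replicate 3), 23–30 and 13–14 in RT against ST, and 7–9 and 9–17 in SV against RT (9 without RT replicate 1, 10 without RT replicate 2). The causes of these shifts were not tested. Shares over all genes were taken for the main fit only, so no count under an alternative has a share beside it.

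Between arrays of different regions, deviations of same-numbered arrays from their region means correlated at 0.0692–0.190 over all probe sets. Those of other numbers within replicates 1 and 2 or 3 and 4 correlated at 0.0698–0.178. Over brighter probe sets these ranges were 0.277–0.671 and 0.168–0.477. Of 11 arrays, 10 correlated best with their own number. Whether same-numbered arrays came from the same animals is not given in the sources used here. The main fit treats them as unpaired. The replicate block ended none of the 36 calls. Differences in signals near 32 or below depend on how low signal is treated, and 3 RT pools limit what can be called.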
